A study of Mus musculus with 2 samples.

Results

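Interferon response genes were followed here in whole pancreas of newborn mice that lack normal Glis3, a Krüppel-like zinc finger transcription factor, against wild-type pancreas. The list held 46 genes chosen by name: the receptors for type I and type II interferon, the factors that carry the signal to the nucleus, sensors of foreign nucleic acid, and the antiviral and GTPase genes that the signal switches on. Probes were assigned to a gene by RefSeq accession or by the symbol in their description. This gave 63 probes for 45 of the 46 genes, out of 41174 probes and 16766 named genes on the array; no probe was matched to Xaf1. All 45 genes were well above background and none was saturated, so all 45 entered the comparison.

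The mutant pool, labelled Glis3KO or Glis3zf/zf, held RNA from the pancreas of 2 homozygous pups at postnatal day 3. The wild-type pool held RNA from 2 wild-type pups of that age. The sources used here name neither strain nor litter. Both pools were labelled with Cy3 and with Cy5 and hybridised together on 2 two-colour Agilent whole mouse genome arrays with the dyes exchanged. The arrays repeat the same 2 RNA pools, so there is 1 sample per genotype, no test between genotypes was possible and no p-value is given; the spread quoted is that between the arrays. Whole pancreas is a mixture of cells, in which fewer cells of a type and less RNA per cell cannot be told apart.

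Interferons are secreted alarm signals. Type I interferons (alpha and beta) bind the receptor chains Ifnar1 and Ifnar2, and through Stat2 and Irf9 switch on antiviral genes by a promoter element called ISRE. Type II interferon (gamma) binds Ifngr1 and Ifngr2 and works mainly at GAS elements, which drive many of the GTPase genes. In uninfected tissue most of these genes are held at a low, tonic level, and in pancreatic islets they are best known for rising in beta cells during viral infection and autoimmune diabetes.

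Across 16509 detected genes, Pearson's r between the arrays' ratios was 0.72 and Spearman's rho 0.43, a description of technical repeatability over genes that share both pools. The difference between arrays put the technical SD of a mean log2 ratio at 0.08, over all genes and over the interferon genes alike. Median local background lay between 46.5 and 50 intensity units and between 94% and 96.8% of gene spots were well above it. The single Glis3 probe gave log2 ratios of -0.02 and 0.01, and it does not check the labels, since the sources used here do not say where it lies in relation to the mutation. The tissue showed its defining markers, with 11 of 12 acinar and 10 of 10 islet markers detected. Skeletal muscle markers, which are foreign to pancreas, had summed normalised signals of 22110 and 22464 in the mutant pool and 2019 and 2351 in the wild-type pool.

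No interferon gene differed by the 1.5-fold rule, which asked for a mean log2 ratio of 0.58 or more in size and for 0.32 or more in that direction on each of the arrays. Over all detected genes 1.04% passed that rule, 0.533% higher and 0.503% lower in the mutant. At shares that low, a count of 0 does not set the 45 genes apart from the rest. The median log2 ratio of the 45 genes, mutant over wild type, was -0.06, against 0.00 over all detected genes. It was -0.05 where Cy5 marked the mutant and -0.07 where Cy3 did. By role, medians ran from -0.28 for antiviral effectors outside the named families to 0.21 for the IFITM genes. Over 78 detected interferon-stimulated genes outside the list the median was 0.01. Of the 45, 26 were below 0 on both arrays, 10 were above 0 on both and 9 had mixed signs or a value of 0 on an array; among all detected genes 30.5% were below and 32.5% above 0 on both. By a looser rule, a mean log2 ratio of 0.32 or more in size and 1.1-fold or more on each of them, 4 interferon genes were lower in the mutant, Ifi44, Isg15, Ifit3 and Gbp3, and 0 were higher. Over all detected genes the looser rule called 4.25%, of which 2.53% lower and 1.73% higher.

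**Figure D1:**
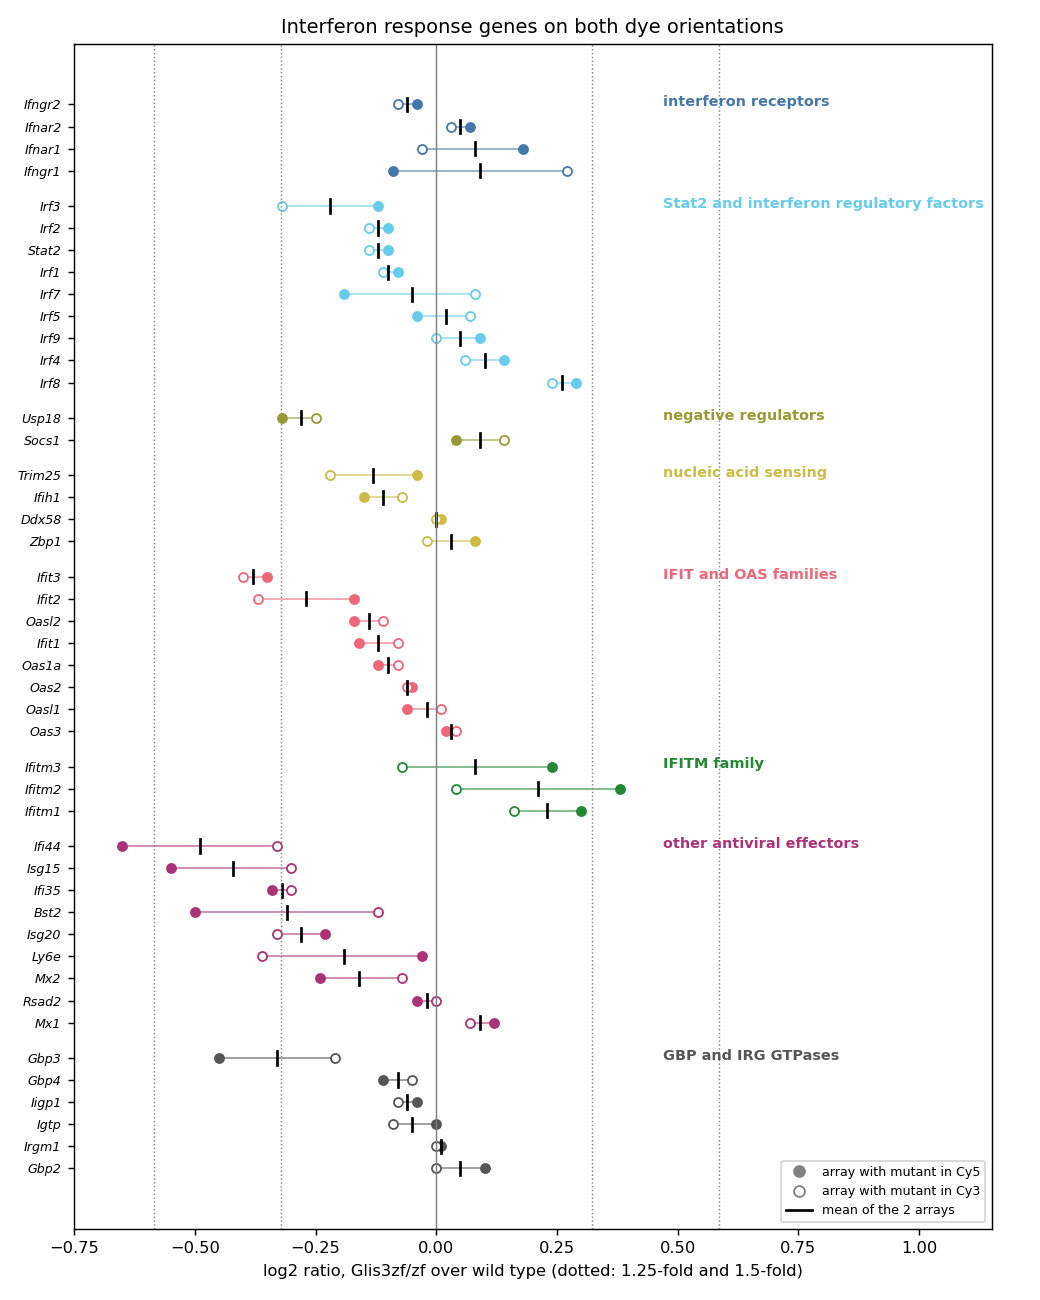
Log2 ratio of Glis3zf/zf over wild type (x axis) for each of the 45 measured interferon genes (rows), grouped by role; filled points stand for the mutant in Cy5, open points for the mutant in Cy3, black bars their mean, and dotted lines mark log2 ratios of 0.32 and 0.58 in size. Ifi44, Isg15, Ifit3 and Gbp3 have means beyond the inner dotted line on the lower side, no mean reaches an outer line, and the 3 IFITM genes have means above 0.

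The 4 lower genes were dim. The normalised signals below are log2 intensities that include an offset of 50 units, on which the 95th percentile of negative control spots lay between 5.89 and 5.95. Ifi44 sat in the lowest of 4 equal signal classes, in which 0.824% of all genes were lower by the looser rule and 1 of 14 interferon genes was. Isg15, Ifit3 and Gbp3 sat in the next class, where the rule called 1.79% of all genes lower and 3 of 14 interferon genes. In the 2 brighter classes it called 3.42% and 4.07% of all genes lower and 0 of the 6 and 11 interferon genes. The offset pulls the ratios of dim genes towards 0, so folds of these genes were smaller with it than without it. Which of the 2 is nearer the true fold was not tested.

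The promoters of the lower genes are shown for their ISRE-like core. The windows are RefSeq promoters of assembly GRCm38.p6, from 250 bases before to 50 bases after a gene's start. The motif searched was GAAA followed, after 2 bases of any kind, by a second GAAA, on either strand, and the capitals mark each match, overlapping ones merged. It was in the window of 18 of the 38 interferon genes that the promoter table holds, as 18 of their 45 windows (40%), against 3.44% of all 32851 windows. Of the 4 genes past the looser rule, 3 held it: Isg15 on chr4:156200769-156201068 (minus strand), Ifit3 on chr19:34583279-34583578 (plus strand) and Gbp3 on chr3:142559794-142560093 (plus strand). No match was found in the Ifi44 window. Ifitm3, on chr7:141010695-141010994 (minus strand), is shown beside them as a gene that holds the motif and had a mean ratio of 0.08. Its matches begin after the gene's start, whereas those of Isg15, Ifit3 and Gbp3 begin before it.
Isg15: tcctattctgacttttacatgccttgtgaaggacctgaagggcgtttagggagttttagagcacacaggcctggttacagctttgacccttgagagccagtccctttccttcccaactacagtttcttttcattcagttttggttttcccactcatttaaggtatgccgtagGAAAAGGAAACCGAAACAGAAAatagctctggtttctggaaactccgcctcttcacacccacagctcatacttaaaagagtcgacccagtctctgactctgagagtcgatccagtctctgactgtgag
Ifit3: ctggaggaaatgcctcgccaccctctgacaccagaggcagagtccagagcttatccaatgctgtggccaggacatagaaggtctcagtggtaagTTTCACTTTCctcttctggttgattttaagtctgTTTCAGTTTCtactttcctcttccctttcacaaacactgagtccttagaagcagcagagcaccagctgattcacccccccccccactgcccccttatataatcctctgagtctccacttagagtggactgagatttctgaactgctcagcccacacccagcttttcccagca
Gbp3: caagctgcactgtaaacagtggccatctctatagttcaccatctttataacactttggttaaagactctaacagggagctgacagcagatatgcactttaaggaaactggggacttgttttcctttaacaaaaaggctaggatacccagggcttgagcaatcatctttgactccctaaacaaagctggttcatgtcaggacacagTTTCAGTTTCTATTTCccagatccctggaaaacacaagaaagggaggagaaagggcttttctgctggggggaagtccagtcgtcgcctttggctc
Ifitm3: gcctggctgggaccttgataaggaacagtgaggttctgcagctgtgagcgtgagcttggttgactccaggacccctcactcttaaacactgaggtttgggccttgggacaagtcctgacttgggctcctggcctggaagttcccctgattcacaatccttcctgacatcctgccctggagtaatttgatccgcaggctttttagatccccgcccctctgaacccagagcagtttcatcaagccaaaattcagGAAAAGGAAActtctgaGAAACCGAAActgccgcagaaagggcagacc

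The motif was present in windows of genes on either side of 0. It was in 11 of 20 genes below 0 on both arrays and in 5 of 9 genes above 0 on both, counting genes with a window in the table. In the Isg15 window 3 matches overlapped, the first starting 78 bases before the gene's start. A second motif, TTCNNNGAA, which reads alike on both strands and is the GAS core, was in windows of 12 of the 38 interferon genes. That was 12 of their 45 windows (26.7%), against 8.3% of all windows. None of the 4 genes past the looser rule held this second motif. A match is a string of letters and not a shown binding site.

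The antiviral effectors had the lowest ratios. Of 9 measured antiviral effectors outside the named families, 8 were below 0 on both arrays, with a median of -0.28. Ifi44, a cytoplasmic protein of the type I interferon response, had normalised log2 signals of 6.69 and 6.83 in the mutant pool, against 7.34 and 7.16 in the wild-type pool. Both mutant signals lay under both wild-type signals, as they did for 19.0% of all detected genes. Ifi44 had log2 ratios of -0.65 and -0.33, a mean of -0.49 and a 1.41-fold lower level in the mutant. Of all detected genes, 0.866% had a ratio as low or lower. Isg15, a ubiquitin-like protein that is attached to other proteins during the response, had signals of 7.55 and 7.58 in the mutant pool, against 8.10 and 7.88 in the wild-type pool. The pools did not overlap, and Isg15 was 1.34-fold lower, with ratios of -0.55 and -0.30. The files put this Isg15 probe (NM_015783) at 43915424 to 43915483 of chromosome 17, whereas the RefSeq table places the gene on chromosome 4. The sources used here name no build for the files' coordinates, so which locus the signal comes from was not tested. For the same reason the probe positions of Ifit3 and Gbp3 given below cannot be set against their GRCm38.p6 promoter windows.

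Other effectors were lower by less. Ifi35, a leucine zipper protein, had signals of 7.94 and 7.93 in the mutant pool, against 8.28 and 8.23 in the wild-type pool, and at a mean of -0.32 lay, before rounding, just outside the looser rule, while Gbp3 at -0.33 lay just inside. Bst2, the tetherin that holds budding virus particles at the cell surface, had 10.68 and 10.86 in the mutant pool, against 11.18 and 10.98 in the wild-type pool. Its ratios of -0.50 and -0.12 differed the most between arrays of any interferon gene, and their mean of -0.31 rests mostly on the mutant-in-Cy5 array. Isg20, an exonuclease that degrades single-stranded RNA, had 8.49 and 8.27 in the mutant pool, against 8.72 and 8.60 in the wild-type pool. Its mean ratio was -0.28, and its other probe gave -0.25. Ly6e, a lipid-anchored surface protein, had ratios of -0.03 and -0.36, and Mx2, a dynamin-like antiviral GTPase, had -0.24 and -0.07. Rsad2, the radical SAM enzyme viperin, had -0.04 and a value that rounds to 0.00 by its brightest probe, a mean of -0.02, and -0.25 and 0.04 by its other probes. Mx1, the paralogue of Mx2, was the effector above 0 on both arrays, at 0.12 and 0.07.

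Among the IFIT and OAS families, whose proteins bind foreign RNA or make the oligoadenylates that activate RNase L, 6 of 8 genes were below 0 on both arrays and the median was -0.11. Ifit3 had signals of 7.53 and 7.53 in the mutant pool, against 7.88 and 7.94 in the wild-type pool. Ifit3 was 1.30-fold lower, with ratios of -0.35 and -0.40. The files put its probe (NM_010501) at 33937862 to 33937921 of chromosome 19. Ifit2 had a mean of -0.27 by the probe used and 0.07 by its other probe, the widest gap between probes of any interferon gene, 0.34. Ifit1 had -0.12. The OAS genes ran from -0.14 for Oasl2 to 0.03 for Oas3, with Oas1a at -0.10, Oas2 at -0.06 and Oasl1 at -0.02. The genes of these families are related in sequence and probe sequences were not analysed here, so cross-hybridisation between them was not tested.

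**Figure D2:**
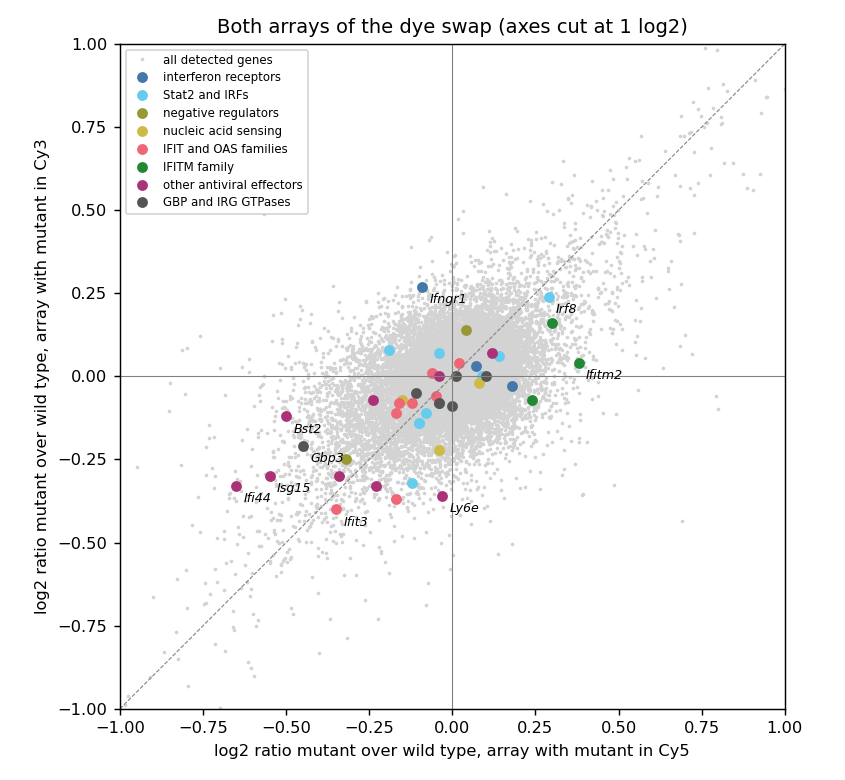
Log2 ratio of mutant over wild type with the mutant in Cy5 (x axis) and in Cy3 (y axis), for all detected genes (grey) and the interferon genes (coloured by role), with axes cut at 1 log2. Ifi44, Isg15, Ifit3 and Gbp3 lie in the lower left at the edge of the grey cloud, and Irf8 lies in the upper right at 0.29 and 0.24.

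The IFITM genes had means on the other side of 0. These encode small membrane proteins that hinder fusion of virus and cell membranes, and all 3 had positive means, with a median of 0.21. Ifitm1 had signals of 11.30 and 10.79 in the mutant pool, against 11.00 and 10.62 in the wild-type pool, with ratios of 0.30 and 0.16. Ifitm2 had ratios of 0.38 and 0.04, and Ifitm3 had 0.24 and -0.07. All 3 ratios were larger on the mutant-in-Cy5 array, and on the dye-swapped array the median was 0.04. The 3 genes are close relatives, and cross-hybridisation between them was not tested.

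The GTPase genes that respond chiefly to interferon gamma were near 0 apart from Gbp3. Gbp3, a guanylate-binding protein, had signals of 7.49 and 7.69 in the mutant pool, against 7.94 and 7.90 in the wild-type pool. The pools did not overlap, with the mutant lower, as for 19.0% of all detected genes. Gbp3 was 1.26-fold lower, with ratios of -0.45 and -0.21 by its probe (NM_018734, chromosome 3, 141542083 to 141542142 in the unnamed build). Its relatives Gbp4 and Gbp2 had -0.08 and 0.05. The immunity-related GTPases Iigp1, Igtp and Irgm1 had -0.06, -0.05 and 0.01, and the other probe of Irgm1 gave -0.11.

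Receptors and signal carriers differed little. The 4 receptor chains ran from -0.06 for Ifngr2 to 0.09 for Ifngr1, and Ifnar1 and Ifnar2 had 0.08 and 0.05. Ifngr1 changed sign between the arrays, at -0.09 and 0.27, and the other probe of Ifngr2 gave 0.15. Stat2, the type I signal transducer, had -0.12, with -0.10 and -0.14 on the arrays. Its partner Irf9 had 0.05, and Irf7, the factor that amplifies the type I response, changed sign at -0.19 and 0.08. Irf3, which starts interferon production once phosphorylated, was the lowest of the regulatory factors: it had signals of 9.69 and 9.65 in the mutant pool, against 9.81 and 9.97 in the wild-type pool, with a mean ratio of -0.22. Irf1, Irf2, Irf4 and Irf5 lay between -0.12 and 0.10.

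Irf8, a factor that myeloid and B cells need, had the highest ratio of the interferon genes when each was read from its brightest probe. It had signals of 8.55 and 8.43 in the mutant pool, against 8.26 and 8.19 in the wild-type pool. Both mutant signals lay above both wild-type signals, as for 14.4% of all detected genes. The mean ratio of Irf8 was 0.26 by this probe and 0.11 by its other probe. With the median over probes it was 0.18, below Ifitm2 at 0.24 and Ifitm1 at 0.23. Macrophage and monocyte markers lay mostly on the same side: 11 of 13 detected were above 0 on both arrays and 2 were below, with a median of 0.30. By the looser rule 5 were higher, where 1.73% of all detected genes were. The summed signals of the 13 markers were 30820 and 28930 in the mutant pool, against 19967 and 19621 in the wild-type pool. The brightest of them, Lyz2, made up the largest part of these sums. It had signals of 14.03 and 13.87 in the mutant pool, against 13.10 and 13.08 in the wild-type pool. Its mean ratio was 0.86 by the probe used and 0.48 by its other probe. The part of these cells in the Irf8 ratio was not tested.

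The feedback inhibitors went different ways. Usp18, the protease that removes Isg15 from proteins and blocks the type I receptor, had signals of 7.02 and 7.14 in the mutant pool, against 7.33 and 7.38 in the wild-type pool. The pools did not overlap, with the mutant lower, as for 19.0% of all detected genes. Usp18 had ratios of -0.32 and -0.25 and a 1.22-fold lower level in the mutant. Socs1, an inhibitor of the receptor kinases, had 0.04 and 0.14. Among nucleic acid sensors, Ddx58 (RIG-I) had 0.00, Zbp1, which binds Z-form nucleic acid, 0.03, Ifih1 (MDA5) -0.11, and Trim25, a ubiquitin ligase that activates RIG-I, -0.13. The other probes of Ifih1 and Trim25 gave 0.04 and -0.04.

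Normalised signals of the pools did not overlap for 21 interferon genes, 18 lower and 3 higher in the mutant, and overlapped for 24. Over all detected genes the share without overlap was 19.0% lower and 14.4% higher. The non-overlapping set includes ratios as small as that of Rsad2, at -0.02, so it is no measure of size. Lowest signals within 1 log2 of the negative control level were seen for 10 of the 45 genes, Ifi44 among them, and for these the arrays have little room to show a fall.

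Genes of the pathway outside the list had medians near 0. Of 21 interferon genes themselves, 12 were well above background, none was below 0 on both arrays, and the median was 0.04. Ifnb1 (interferon beta) had 0.02 and -0.12 and Ifng (interferon gamma) 0.11 and 0.01. Ifna9, an interferon alpha gene, passed the 1.5-fold rule at 0.73 and 0.68, where 0.533% of all detected genes were higher. Its signals were 13.12 and 13.19 in the mutant pool, against 12.39 and 12.52 in the wild-type pool. Ifna9 was read by a single probe, and whether that signal comes from Ifna9 was not tested. Of 16 further receptors, kinases and regulators 0 passed the looser rule. That rule called 4.25% of all detected genes, so 0 of 16 does not set them apart. The receptor kinases Jak1, Jak2 and Tyk2 lay between -0.01 and 0.05. The lowest of the 16 was Nmi, the binding partner of Ifi35, at -0.34 and -0.25. The 16 detected genes of the pathways that induce interferon ran from -0.12 for Dhx58 to 0.23 for Tlr7.

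A longer list of 100 other interferon-stimulated genes had a median of 0.01 over its 78 detected members, with 27 below and 28 above 0 on both arrays. By the looser rule 4 were higher, B2m (0.58), Plac8 (0.39), Apobec1 (0.39) and Fcgr1 (0.34), and 1 was lower, Psmb10. Over all detected genes that rule called 1.73% higher and 2.53% lower. Psmb10, an immunoproteasome subunit, was also the one that passed the 1.5-fold rule, at -1.78 and -1.67. By that rule 0.503% of all detected genes were lower. B2m, the light chain of class I molecules, fell just short of the 1.5-fold rule before rounding (1.49-fold). Psmb10 was read by a single probe, with signals of 11.70 and 11.76 in the mutant pool, against 13.48 and 13.43 in the wild-type pool. Whether that signal comes from Psmb10 was not tested. The other inducible subunits, Psmb8 and Psmb9, had 0.05 and -0.06.

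**Figure D3:**
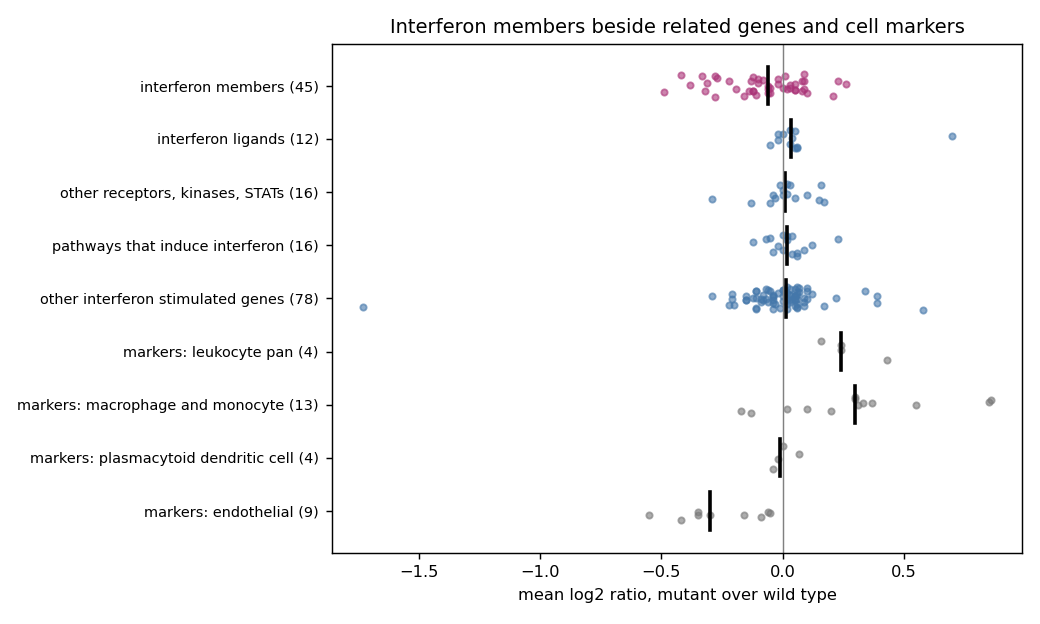
Mean log2 ratio of mutant over wild type (x axis) for each detected gene of the interferon list, of 4 related lists and of 4 marker lists (rows, number of genes in brackets); black bars are medians. The interferon genes have a median of -0.06, macrophage markers 0.30 and endothelial markers -0.30.

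Markers of other cells differed between the pools in both directions. Endothelial markers had a median of -0.30, with 7 of 9 detected below 0 on both arrays. By the looser rule 4 of them were lower, where 2.53% of all detected genes were. The summed signals of the endothelial markers were 6048 and 6190 in the mutant pool, against 7813 and 7648 in the wild-type pool. Islet markers had a median of -1.86, with 10 of 10 below 0. The probes of 2 of them, Ins1 and Ins2, were saturated, and the other 8 had summed signals of 45589 and 43178 in the mutant pool, against 98888 and 90559 in the wild-type pool. Erythroid markers had a median of -0.26, with 4 of 5 detected below 0, and summed signals of 27132 and 25760 in the mutant pool, against 39564 and 38063 in the wild-type pool. Duct and mesenchyme markers had medians of 0.28 and 0.19. All 4 general leukocyte markers were above 0 on both arrays, with a median of 0.24 and summed signals of 1779 and 1722 in the mutant pool, against 1428 and 1390 in the wild-type pool. The 4 markers of plasmacytoid dendritic cells, the main producers of type I interferon, had a median of -0.01. Lymphocyte markers had 0.07 and granulocyte markers 0.06. The part of any of these cells in the interferon ratios was not tested.

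The size of the lower ratios depended on how dim signals were treated. Without the offset in the background correction, Ifi44 had a mean ratio of -0.82, Isg15 -0.54, Ifit3 -0.50 and Gbp3 -0.43. With the scanner software's own ratios Ifi44 had -0.88, Isg15 -0.55, Ifit3 -0.51 and Gbp3 -0.44. Ifi44 then passed the 1.5-fold rule in both, where 0.739% and 0.836% of all detected genes were lower. By the looser rule 7 interferon genes were lower without the offset, against 3.86% of all genes, the further 3 being Ifi35, Ifit2 and Usp18. With the software's ratios it was 9, against 4.17% of all genes, with Isg20 and Mx2 added.

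**Figure D4:**
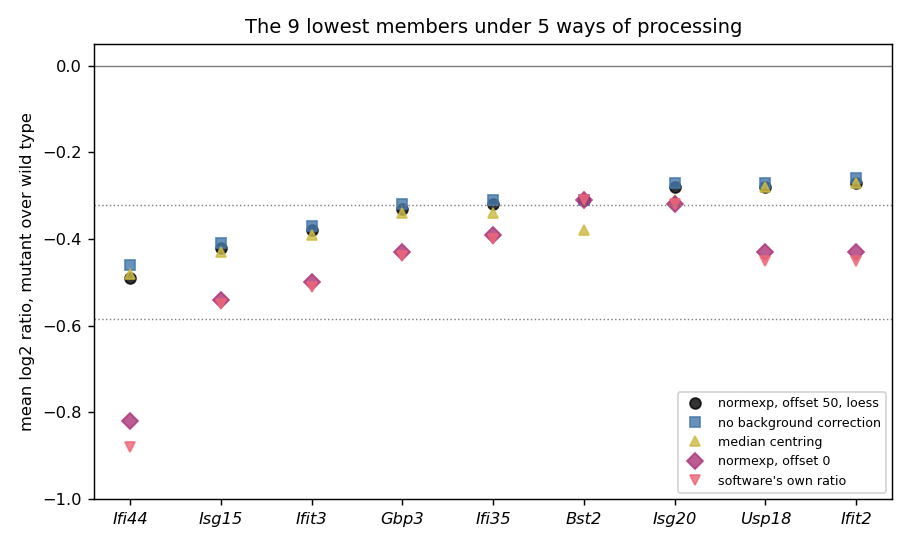
Mean log2 ratio of mutant over wild type (y axis) of the 9 interferon genes with the lowest ratios (x axis) under 5 ways of processing the same arrays, with dotted lines below 0 at log2 sizes of 0.32 and 0.58. All values lie below 0; Ifi44 runs from -0.46 without background correction to -0.88 with the software's own ratio.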

How the data were processed

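Per the file headers, the deposited scanner output gives mean spot intensity and median local background intensity for each dye, not normalised, and the software's flags. It also gives processed intensities, background-subtracted and dye-normalised per the file headers, and their log10 ratio (Cy5 over Cy3). The scanner software was Feature Extraction, in version 7.5 per the labels and in version 8.5.1.1 per the file headers. The deposited series table holds log2 ratios, which as mutant over wild type matched the software ratios to within 0.002 for 99.99% and 99.98% of 41174 probes.

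Intensities were corrected by normexp with an offset of 50 and then by within-array loess (weight 0 for control spots) in limma 3.58.1 (R 4.3.3); 15 and 53 outlier spots were left out. The probe used for a gene was its brightest unsaturated one, well above background for at least 1 genotype on both arrays. Both arrays' ratios, expressed as mutant over wild type, were averaged. Normalised signals were taken after loess and Aquantile. The steps were tested on simulated data, and later ones used Python 3.11.15. Probes were named through the RefSeq table of GRCm38.p6 (23302 of 41174). The number of arrays limits the precision.

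Members, lists and rules were chosen with earlier results of these data known. Named were members past a rule of size, the extremes of each role, and others after their values were seen; from the wider lists, genes past the rule, the extremes, and a few chosen after their values were seen.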

Additional observations from a re-analysis of the deposited data

How the results depend on the processing

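The main count was 0 interferon genes higher and 0 lower by the 1.5-fold rule, where 0.533% and 0.503% of all detected genes were. At shares that low, a count of 0 does not set the 45 genes apart from the rest. The count of 0 held without background correction, with median centring, with outlier spots kept and with the median over probes. The settings with no detection filter and with all channels well above background kept the same 45 genes, and a 2-fold rule is stricter. These settings gave 0 too but could not have changed the result. With a normexp offset of 0 (0.739% of all genes lower), with the software ratios and the series table as deposited (0.836%), 1 was lower, Ifi44. On the mutant-in-Cy3 array alone 0 interferon genes were lower (0.521% of all genes). On the mutant-in-Cy5 array alone 1 was, Ifi44 (0.83%). The looser rule gave 4 lower (2.53%). In combinations chosen after seeing the data, that rule gave 7 with offset 0 (3.86% of all genes lower), 6 with median centring (3.81%), 9 with the software's ratios (4.17%), 4 with the median over probes (2.04%) and 6 on each array alone (4.92% with the mutant in Cy5, 2.6% with it in Cy3). The only interferon gene higher in any of them was Ifitm2, on the mutant-in-Cy5 array alone, where 2.73% of all genes were higher. With 1 array alone under that rule Isg15 and Gbp3 were lower with the mutant in Cy5 and not with the mutant in Cy3, where they had -0.30 and -0.21.

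The median of the interferon genes was -0.08 with offset 0 and -0.10 with the software's ratios and the series table, against -0.06. Between arrays it ran from -0.07 to -0.05. The count over all genes was 171 by the 1.5-fold rule, 267 with the software's ratios and the series table, 63 by the 2-fold rule and 702 by the looser rule. With the looser rule it was 1076 with offset 0, 849 with median centring, 1167 with the software's ratios and 586 with the median over probes, and between 748 and 1262 on single arrays. Median centring gave 81 higher and 107 lower, against 88 and 83. The cause of these shifts was not tested. Over 405 mean ratios of the 45 genes under alternatives that keep both arrays, 4 had the other sign, those of Gbp2 and Irgm1 with median centring and of Ifngr2 and Irgm1 with the median over probes, none past a rule of size; Ddx58, at 0.00, took either sign. Among those alternatives, the detection settings could not change a ratio, and the series table repeats the software's ratios, so the 405 values are not separate checks. No paired analysis was possible because each genotype is a single pool.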

Other observations

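The array holds 3 probes without a gene name here that are described as products of interferon genes and belong to no comparison above. A clone described as Ifit3 product had log2 ratios of -0.03 and -0.01, whereas the named Ifit3 probe had -0.35 and -0.40; its signals were 6.67 and 6.59 in the mutant pool, against 6.70 and 6.60 in the wild-type pool. A clone described as Irf3 product had 0.05 and -0.06. A predicted transcript similar to Ifitm2 had 0.31 and 0.12, beside 0.38 and 0.04 for the Ifitm2 probe used.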
